A study of Homo sapiens with 12 samples.

Results

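The matrix proteases and their inhibitors were followed in RNA of A375 cells, an established human metastatic melanoma line derived from skin. Members were chosen by gene symbol alone. They were the matrix metalloproteinases (MMP plus a number), the tissue inhibitors TIMP1 to TIMP4, the ADAM and ADAMTS proteases (the letters plus a number), both plasminogen activators PLAU and PLAT, and the urokinase receptor PLAUR. Antisense genes and the pseudogenes ADAM5 and ADAM6 were left out. This gave 68 members of 23705 genes in the count table, of which 22 were MMP, 4 TIMP, 20 ADAM and 19 ADAMTS genes, with 3 genes of the plasminogen activator group. The cells, at passages 30-32, were grown in medium with serum and treated for 24 h with DMSO vehicle alone, with 5 µM of the PPARγ agonist rosiglitazone (RGZ), with 2 µM of the PPARγ antagonist T0070907, or with both agents, called the combination here. Every treated group also received DMSO. Each of the 4 conditions had 3 libraries, 1 from each of 3 independent experiments, and each library held pooled RNA of technical replicates. A375 is a single line, so the results describe this line and these doses.

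These proteins decide how a cell handles the matrix around it. MMPs are zinc endopeptidases that cut collagens, laminins and other matrix proteins, ADAMs mostly shed receptors and ligands from the cell surface, and ADAMTS proteases are secreted enzymes that cut proteoglycans and procollagens. TIMPs bind the active site of MMPs and, for TIMP3, of several ADAM and ADAMTS enzymes too. In the plasminogen system, urokinase (PLAU) bound to its receptor PLAUR, or tissue activator (PLAT), turns plasminogen into plasmin, which cuts fibrin and can activate some MMPs. In melanoma this set of genes has been studied for its part in invasion.

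Total counts ran from 8319455 to 11375227 per library, so the floor of 3 counts used here lay between 0.258 and 0.371 CPM, the count scaled to the size of the library. Libraries of the same experiment deviated from their condition means together, with a mean correlation across genes of 0.554 over 18 pairs, of which 17 were over 0.1. For this reason each test is given from the fit without the experiment and from the fit with the experiment number as a block, which compares conditions within each experiment. A gene is said to be called where its adjusted p (Benjamini-Hochberg over 13522 tested genes, edgeR quasi-likelihood test) was under 0.05. FABP4, a lipid carrier and standard PPARγ target, was called higher with RGZ, as were ANGPTL4 and CPT1A. In the combination these genes were called lower than with RGZ alone, in both fits. With the block they were still called higher when RGZ was added to T0070907. Of 8 melanocyte lineage markers, 6 were over the floor, SOX10 and MITF among them, while TYR was at 0 in every library. Some marker levels moved with the experiment. The melanocyte list summed to 345 to 415 CPM in experiment 1, 229 to 327 in experiment 2 and 422 to 531 in experiment 3, whereas the fibroblast list summed to 13.1 to 20.0, 22.1 to 37.5 and 11.4 to 18.2 CPM. Single genes carried these sums. SOX10 was at 300, 208 and 425 CPM in the vehicle libraries of experiments 1, 2 and 3, while MITF ran the other way at 48.6, 56.6 and 32.6 CPM. COL1A1 was at 9.88, 27.4 and 5.53 CPM there, while LUM was highest in experiment 3. Leukocyte markers summed to at most 1.39 CPM. The cultures were of a single line, and in bulk RNA fewer cells with a transcript and less of it per cell cannot be told apart.

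Promoter stretches are shown for 5 members because the data bear on them. PLAUR, TIMP1 and TIMP3 were called higher with RGZ in the blocked fit, and MMP10 and MMP8 are neighbours on chromosome 11 whose levels in experiment 2 lay on opposite sides of the other experiments. The stretches end at the base before the RefSeq transcript start in GRCh38.p14, and they lie at chr19:43670170-43670369 (PLAUR, minus strand), chrX:47582286-47582435 (TIMP1, plus strand), chr22:32801525-32801704 (TIMP3, plus strand), chr11:102780629-102780748 (MMP10, minus strand) and chr11:102724955-102725074 (MMP8, minus strand). Capitals mark AP-1 (TGANTCA) in PLAUR, GC boxes (GGGCGG, on either strand) in TIMP1 and TIMP3, and AP-1 or TATA boxes (TATAAA, on either strand) in MMP10 and MMP8.
PLAUR: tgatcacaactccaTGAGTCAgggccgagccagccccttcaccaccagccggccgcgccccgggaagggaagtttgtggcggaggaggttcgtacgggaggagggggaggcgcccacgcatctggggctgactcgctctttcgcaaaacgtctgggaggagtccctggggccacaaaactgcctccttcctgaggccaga
TIMP1: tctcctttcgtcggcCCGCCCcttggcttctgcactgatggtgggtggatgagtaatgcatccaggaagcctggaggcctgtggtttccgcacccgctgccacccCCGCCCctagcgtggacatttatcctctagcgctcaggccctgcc
TIMP3: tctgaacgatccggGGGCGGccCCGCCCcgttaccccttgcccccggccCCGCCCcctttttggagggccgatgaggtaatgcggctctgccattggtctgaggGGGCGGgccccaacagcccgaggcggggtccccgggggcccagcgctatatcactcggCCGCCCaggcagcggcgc
MMP10: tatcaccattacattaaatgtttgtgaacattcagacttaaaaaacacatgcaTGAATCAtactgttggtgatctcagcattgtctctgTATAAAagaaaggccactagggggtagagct
MMP8: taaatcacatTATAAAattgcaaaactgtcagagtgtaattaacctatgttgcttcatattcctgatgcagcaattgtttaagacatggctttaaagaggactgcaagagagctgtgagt
Of the members, 40 had a RefSeq promoter window, in 42 windows of 250 bases before to 50 after the start. AP-1 letters were found in 5 of the 42 windows (11.9%), those of MMP7, MMP10, MMP20, PLAUR and ADAMTS12, against 7.71% of all 35116 windows. In MMP10 and MMP7 the match began at position -67, counted back from the start, and in PLAUR at -186. TATA box letters were found in 8 windows (19%, against 11.5% of all), beginning at -31 in MMP10 and at -110 in MMP8. A GC box was found in 26 (61.9%, against 45%), and the single repeat unit AGGTCA in 3 (7.14%, against 13.8%). The consensus letters of DR1, the direct repeat bound by PPARγ with its partner RXR, searched on both strands, were in 0 of the 42 windows and in 8 of all windows. A match is a description of these letters and not a measured site.

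Of the 68 members, 43 were abundant enough to be tested and 25 were not. The tested members were 13 MMP, 3 TIMP, 10 ADAM and 14 ADAMTS genes and all 3 of the plasminogen activator group. At or under 3 counts in every library were 17 members, of which 6 were at 0 throughout. They were ADAM2, ADAM7, ADAM18, ADAM20, ADAM28, ADAM29, ADAM30, ADAM33, ADAMTS8, ADAMTS14, ADAMTS19, MMP7, MMP20, MMP21, MMP26, MMP27 and TIMP4. Another 8 exceeded 3 counts somewhere but were too low to test: ADAM21, ADAM32, ADAMTS2, ADAMTS18, MMP9, MMP10, MMP12 and MMP28. MMP9, the gelatinase B that degrades denatured collagen, reached 7 counts at most. ADAMTS18 passed the floor in RGZ libraries only, with 6 counts in experiment 2 and at most 1 in each of the other 11 libraries.

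Within vehicle, levels were compared per kilobase of the longest annotated transcript, as means ± SD of 3 libraries. A pair of inhibitors stood at the top. TIMP3 was at 197 ± 59.8 and TIMP1 at 196 ± 32.5 CPM per kb, a pair that did not differ beyond its spread, and together they made up 89% of the TIMP level. TIMP2, which also takes part in activating MMP2, followed at 48.5 ± 7.42 CPM per kb. Among the MMPs, MMP2 (gelatinase A) was at 58.6 ± 10.6 and the membrane-bound collagenase MMP14 at 27.6 ± 2.99 CPM per kb, and both together were 78.1% of the MMP level. MMP16, another membrane-bound MMP, was at 4.24 ± 0.566 and the interstitial collagenase MMP1 at 3.58 ± 2.81 CPM per kb, which did not differ beyond their spread. ADAM9 and ADAM15, at 46.6 ± 5.49 and 44.1 ± 10.4 CPM per kb, were also alike within their spread and made up 76.8% of the ADAM level, while ADAM10, which sheds Notch and many other surface proteins, was at 7.26 ± 1.55. The highest ADAMTS gene, ADAMTS12, was at 3.25 ± 0.528 CPM per kb, followed by ADAMTS1, which cuts versican and aggrecan, at 2.65 ± 0.699. PLAUR and PLAT were at 43.9 ± 7.52 and 24.0 ± 4.59 CPM per kb, and PLAU, the ligand of PLAUR, was at 0.398 ± 0.276.

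**Figure D1:**
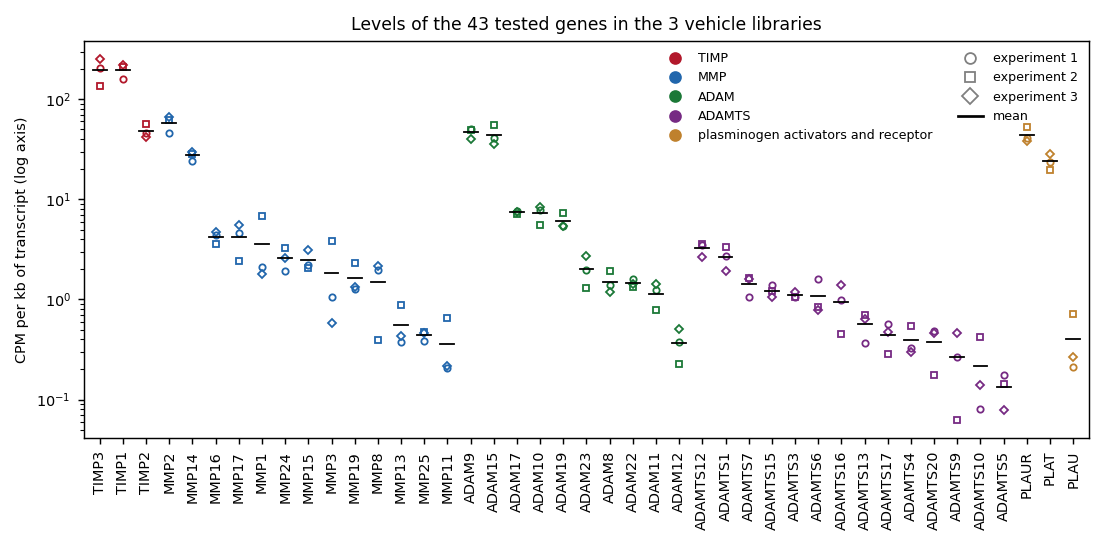
Level of each of the 43 tested genes in the 3 vehicle libraries, as CPM per kb of transcript on a log axis, ordered within each class; symbols give the experiment and black bars the mean of 3. TIMP3 and TIMP1 stand highest at about 197 and 196, and PLAU lies far below PLAUR and PLAT.

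RGZ raised MMP19 and PLAUR, and within experiments it also raised TIMP1, TIMP3 and ADAM19 and lowered MMP2, TIMP2 and MMP8, beside 6 less stable calls. Without the block, 2 of 43 tested members were called, both higher, against 1.24% of all genes tested (0.947% higher and 0.288% lower). With the block 14 were called, 6 higher and 8 lower, against 9.3% of all genes (4.95% higher and 4.35% lower). The median log2 fold change of the members was -0.07 in both fits, and that of all tested genes was -0.01. Of the 14 members called with the block, 8 stayed called whichever of the 6 libraries was left out, namely MMP19, PLAUR, TIMP1, TIMP3, ADAM19, MMP2, TIMP2 and MMP8. Leaving out the vehicle library of experiment 3 lowered the count to 9 of 44 (20.5%), with 5.23% of all genes called. Without the block the count was 1 without RGZ replicate 1 and 0 without RGZ replicate 2 or 3 or vehicle replicate 1 or 3, with 0.328% to 0.643% of all genes called in these fits.

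MMP19, a secreted MMP that cuts basement membrane proteins, had the largest rise. Its level was 4.88, 8.81 and 5.06 CPM in the vehicle libraries of experiments 1, 2 and 3, and 19.8, 21.8 and 20.9 CPM with RGZ. All 3 RGZ libraries lay above every other library. The T0070907 libraries, at 1.39, 2.86 and 2.15 CPM, lay below every vehicle library, and the combination was at 2.96, 4.73 and 8.47 CPM, overlapping vehicle. RGZ against vehicle gave a log2 fold change of 1.74 (SE 0.33, adjusted p = 0.0273), a 3.33-fold rise, and with the block 1.75 (SE 0.20, adjusted p = 1.3e-05). The gene shares 814 exon bases with TMEM198B on the opposite strand, and whether counting used strand is not given in the sources used here. TMEM198B had a log2 fold change of -0.06 (adjusted p = 0.893).

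PLAUR was at 66.0, 84.4 and 61.5 CPM in vehicle and at 94.8, 124 and 111 CPM with RGZ, again without overlap. T0070907 gave 58.1, 67.6 and 50.6 CPM, and the combination 77.8, 75.2 and 79.8 CPM. The RGZ libraries stood above all others and the combination fell within the vehicle range. The fold change with RGZ was 1.56, or 0.64 on the log2 scale (SE 0.14, adjusted p = 0.0437), and 0.64 (SE 0.09, adjusted p = 1.1e-04) with the block. Neither activator was called. PLAT changed by -0.16 on the log2 scale (SE 0.07, adjusted p = 0.192 with the block), and PLAU, at 2 to 28 counts per library, by 0.30 (SE 0.37, adjusted p = 0.687).

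The inhibitors split. TIMP3 was at 939, 619 and 1168 CPM in vehicle and at 1440, 799 and 1890 CPM with RGZ. The groups overlapped because experiment 2 was low in both, yet RGZ was higher within each experiment, by 0.62, 0.37 and 0.69 on the log2 scale. It was not called without the block (0.60, SE 0.33, adjusted p = 0.573) and was called higher with it (0.57, SE 0.08, adjusted p = 1.9e-04). TIMP1 was at 175, 228 and 242 CPM in vehicle and at 230, 307 and 369 CPM with RGZ, with a log2 fold change of 0.48 (SE 0.08, adjusted p = 5.8e-04) in the blocked fit and an adjusted p of 0.363 without it. TIMP2 went the other way, from 169, 207 and 155 CPM to 137, 181 and 124 CPM. It was lower with RGZ in every experiment and was called in the blocked fit only (-0.27, SE 0.05, adjusted p = 0.00261; 0.685 without the block). The summed level of the TIMP genes was 1301 ± 256 CPM in vehicle and 1826 ± 548 CPM with RGZ (SD, n = 3), ranges that overlapped, and within experiments it went from 1282 to 1807, from 1055 to 1287 and from 1565 to 2383 CPM.

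**Figure D2:**
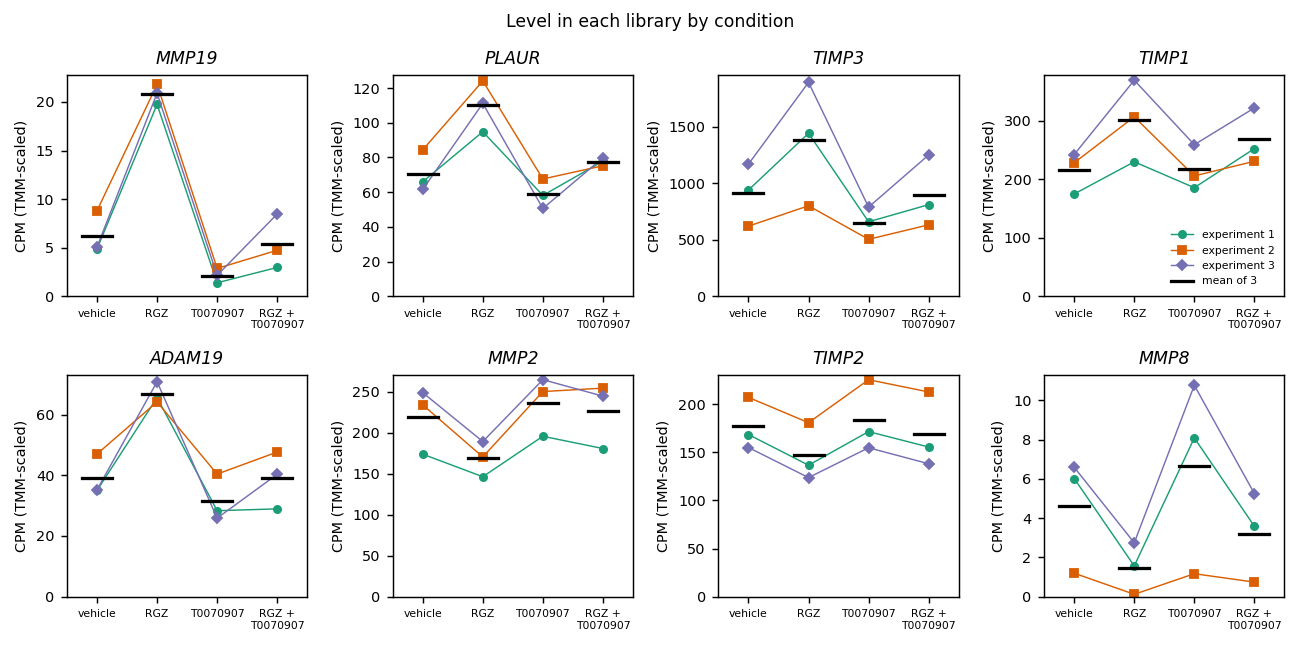
TMM-scaled CPM of 8 members in each library by condition, with lines joining libraries of the same experiment and black bars at the mean of 3. MMP19 and PLAUR are highest with RGZ in all 3 experiments, whereas TIMP3 and MMP8 are shifted down in experiment 2 in every condition.

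Of the 3 MMPs with the highest CPM in vehicle (MMP2, MMP14 and MMP16), MMP2 alone was called. It was at 174, 234 and 249 CPM in vehicle and at 146, 171 and 189 CPM with RGZ, so the groups overlapped although each experiment was lower with RGZ. The blocked fit gave -0.37 on the log2 scale (SE 0.06, adjusted p = 3.0e-04), against an adjusted p of 0.461 without the block. MMP8, the neutrophil collagenase, was low and fell most. It had 53, 10 and 56 counts in vehicle and 15, 1 and 27 with RGZ. Its log2 fold change with the block was -1.65 (SE 0.24, adjusted p = 1.4e-04), and without it the adjusted p was 0.605. Stromelysin MMP3 was lower with RGZ in the blocked fit by -0.93 (SE 0.23, adjusted p = 0.014), and the membrane-type MMP15 by -0.62 (SE 0.18, adjusted p = 0.0389). With 1 library left out, the MMP3 value ran from -1.08 to -0.59 with the block and from -1.75 to 0.16 without it. MMP14, MMP16, MMP1 and the collagenase MMP13, genes of interest to the study in another experiment, were not called in either fit. In the blocked fit MMP14 changed by -0.01 (SE 0.07), MMP16 by -0.19 (SE 0.10), MMP1 by -0.19 (SE 0.38) and MMP13 by -0.70 (SE 0.36).

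Among ADAM genes, ADAM19, a sheddase of neuregulins, was at 35.0, 47.0 and 35.2 CPM in vehicle and at 65.6, 64.2 and 70.8 CPM with RGZ. The groups did not overlap, and the log2 fold change was 0.78 (SE 0.19, adjusted p = 0.0907) without the block and 0.79 (SE 0.12, adjusted p = 2.1e-04) with it. ADAM19 shares 62 exon bases with CYFIP2 on the other strand, which was lower with RGZ in the blocked fit (-0.42, adjusted p = 0.0228). ADAM15, which carries an integrin-binding motif, rose by 0.20 (SE 0.06, adjusted p = 0.0385) and ADAM23, a surface ADAM without protease activity, fell by 0.41 (SE 0.13, adjusted p just under the threshold), both in the blocked fit only. Genes that share exon bases on the same strand had at most 18 counts for DCST1 beside ADAM15 and 5 for CEP295NL beside TIMP2, and AC007336.3, which shares 174 exon bases with MMP2, was not measured here. ADAM9 and ADAM10 changed by -0.07 (SE 0.07) and -0.12 (SE 0.10) and were not called. Of 14 tested ADAMTS genes, 2 were called with the block, ADAMTS16 at -1.07 (SE 0.23, adjusted p = 0.00576) and ADAMTS1 at -0.59 (SE 0.15, adjusted p = 0.0209). ADAMTS12 and ADAMTS6 were not called, at 0.37 (SE 0.16) and 0.01 (SE 0.15). Of the 6 blocked fits with 1 library left out, ADAM15, MMP15 and ADAM23 were called in 1, ADAMTS1 in 2, MMP3 in 4 and ADAMTS16 in 5.

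Some genes used as markers of cell types moved with RGZ in the blocked fit, in cultures of this single line. COL1A1 of the fibroblast list fell by 0.76, KDR of the endothelial list by 0.93 and KRT14 of the keratinocyte list by 0.94 on the log2 scale, and MITF and S100B of the melanocyte list fell by 0.34 and 1.02. These were 1 of 4 tested fibroblast, 1 of 2 endothelial, 1 of 3 keratinocyte and 2 of 4 melanocyte markers, against 9.3% of all genes. The other tested markers were not called in either direction. No marker on these lists was called without the block. The summed fibroblast list was 15.2 to 35.8 CPM in vehicle and 11.4 to 22.1 CPM with RGZ, and the summed melanocyte list 281 to 498 and 229 to 422 CPM. The endothelial list summed to 5.59 to 8.35 CPM in vehicle and 2.91 to 5.79 CPM with RGZ, and the keratinocyte list to 87.9 to 114 and 85.9 to 99.0 CPM. Over the floor in any library were 6 of 6 fibroblast, 4 of 4 endothelial, 3 of 4 keratinocyte and 1 of 4 leukocyte markers. Their part in the results above was not tested.

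**Figure D3:**
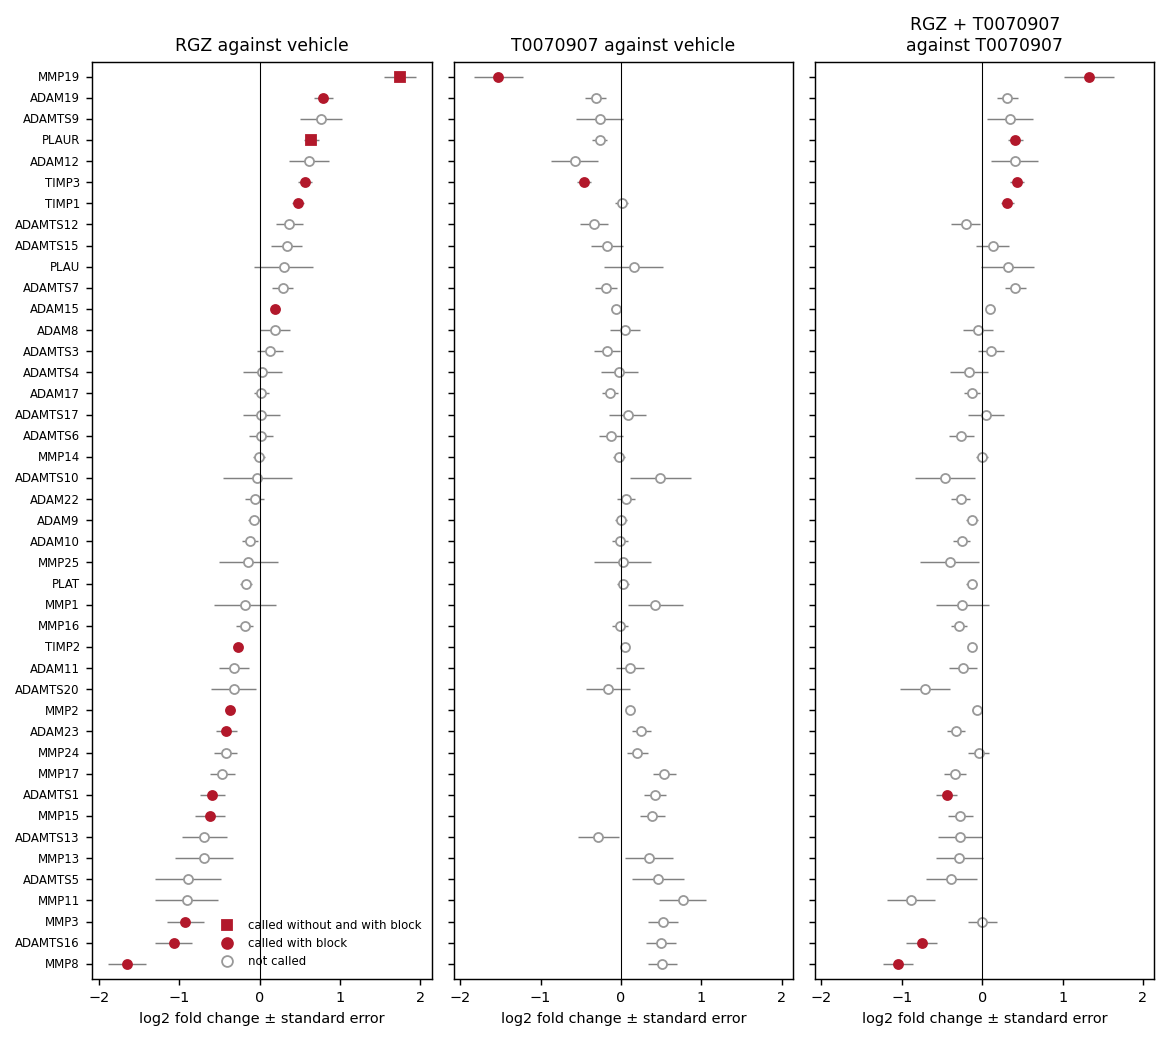
Log2 fold change with its standard error from the blocked fit for the 43 tested members in 3 comparisons on a shared axis, ordered by RGZ against vehicle; filled red symbols were called with the block, and squares also without it. MMP19 lies at the top with RGZ (1.75) and on the other side of 0 with T0070907 (-1.53); the left and middle panels share vehicle libraries, and the middle and right panels share T0070907 libraries.

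T0070907 alone lowered MMP19 and TIMP3 within experiments. No member was called without the block, where 0.0074% of all genes were called and 1 member (2.33%) had an unadjusted p under 0.05, against 3.1% of all genes, and DESeq2 without the block called 1 member. With the block 2 members were called, both lower, against 0.91% of all genes (0.237% higher and 0.673% lower). MMP19 fell by 1.53 on the log2 scale (SE 0.30, adjusted p = 0.0194). TIMP3, at 658, 503 and 788 CPM with T0070907, fell by 0.46 (SE 0.09, adjusted p = 0.011) and was lower than vehicle in all 3 experiments, although the groups overlapped. Neither call was kept in every fit with 1 library left out, where the count ranged from 0 to 1 and 0.22% to 0.452% of all genes were called. TIMP1 (0.01, SE 0.08) and MMP2 (0.12, SE 0.06) were not called. The marker S100B was called higher in the same fit (0.59, SE 0.11), and its part was not tested.

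The combination was compared with each single treatment and with vehicle. Against RGZ, MMP19 was called lower without the block, by -1.94 on the log2 scale (SE 0.33, adjusted p = 0.0159), the only call among 43 members against 1.24% of all genes (0.311% higher and 0.924% lower). With the block 14 members were called against 11.4% of all genes, 9 higher and 5 lower (5.55% and 5.88% of all genes). The 5 lower were MMP19 (-1.95, SE 0.21), ADAMTS12 (-0.91, SE 0.17), ADAM19 (-0.80, SE 0.12), TIMP3 (-0.59, SE 0.08) and PLAUR (-0.50, SE 0.09). The 9 higher were MMP3 (1.45, SE 0.21), MMP8 (1.12, SE 0.26), ADAMTS16 (0.81, SE 0.24), MMP15 (0.74, SE 0.18), the GPI-anchored MMP17 (0.67, SE 0.15), the membrane-type MMP24 (0.58, SE 0.14), ADAMTS1 (0.57, SE 0.15), MMP2 (0.42, SE 0.06) and TIMP2 (0.20, SE 0.05). With 1 library left out, TIMP2 was called in 1 of 6 blocked fits, and without the block its value ran from -0.0021 to 0.37. MMP24 shares 799 exon bases with MMP24OS on the other strand, which was not measured here. TIMP1 was not called, at -0.16 (SE 0.08, adjusted p = 0.226). Markers of the cell type lists were called higher in the same fit, KRT14 by 1.10, S100B by 1.34 and MITF by 0.27 on the log2 scale, and their part in the result was not tested. This comparison shares the RGZ libraries with that of RGZ against vehicle, so the opposite signs of both sets of values are not independent. Of the 14, 7 stayed called whichever library was left out (MMP19, MMP2, MMP3, TIMP3, ADAM19, ADAMTS12 and PLAUR), and the count fell to 8 of 44 (18.2%) without the RGZ library of experiment 1, with 6.52% of all genes called.

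Against vehicle, the combination gave 0 called members in either edgeR fit, and 0% of all genes were called. At an unadjusted p under 0.05 there were 0 members without the block (10.6% of all genes) and 9 with it (20.9%, against 21.2% of all genes), DESeq2 with the block called 1, and the lowest adjusted p with the block was 0.0989, for TIMP1. The count for members and that for all genes moved together when a library was left out. Without the combination library of experiment 2 the blocked fit called 8 of 44 tested members (18.2%) and 19% of all genes, a share of members near that of all genes. Without the vehicle library of experiment 2 it called 4 of 43 (ADAM10, ADAM17, ADAMTS12 and TIMP1; 9.3%) and 6.38% of all genes. The combination differed from vehicle in TIMP1 by 0.53, 0.02 and 0.41 on the log2 scale in experiments 1, 2 and 3, in ADAM10 by -0.69, 0.13 and -0.27, and in ADAM17, the main shedding enzyme of TNF, by -0.56, 0.09 and -0.35. ADAM17 shares 1323 exon bases with IAH1 on the other strand, a gene with a mean of 29.4 CPM in vehicle and 33.5 CPM in the combination. ADAMTS12 was at 30.7, 31.7 and 23.2 CPM in vehicle and at 13.5, 29.3 and 15.9 CPM in the combination, lower in each experiment. These 4 genes were picked because they were called in both blocked fits without a library of experiment 2, so the pattern is a description.

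Addition of RGZ to T0070907 gave a set of libraries independent of those for RGZ against vehicle, though from the same experiments. No member was called without the block (0.037% of all genes called; 3 members, or 6.98%, had an unadjusted p under 0.05, against 15% of all genes), and 7 were called with it, 4 higher and 3 lower, against 8.76% of all genes (4.55% higher and 4.22% lower). Higher were MMP19 (1.32, SE 0.31, adjusted p = 0.0178), TIMP3 (0.43, SE 0.09, adjusted p = 0.00782), PLAUR (0.41, SE 0.09, adjusted p = 0.0155) and TIMP1 (0.31, SE 0.08, adjusted p = 0.0267). Lower were MMP8 (-1.05, SE 0.19, adjusted p = 0.00403), ADAMTS16 (-0.75, SE 0.19, adjusted p = 0.0265) and ADAMTS1 (-0.44, SE 0.13, adjusted p = 0.0494). All 7 were also called with the block for RGZ against vehicle, and 13 of the 14 called there had the same sign here, MMP3 being the exception, as had 37 of all 43 tested. Over all genes, 34.6% of those called here were called in both, 93.4% of those called for RGZ against vehicle had the same sign here, and 69.8% of all tested had. The interaction of both agents, which tests whether the effect of RGZ differed with T0070907 present, called 0 members in either fit (0% of all genes without the block and 0.281% with it), with 0 and 4 members at an unadjusted p under 0.05 (0% and 9.3%, against 3% and 9.79% of all genes). Its lowest blocked adjusted p was 0.16, for MMP2. FABP4, ANGPTL4 and CPT1A were also called higher in the blocked fit of RGZ added to T0070907. COL1A1 of the fibroblast list was called lower (-0.55, SE 0.12) in the same fit, and its part was not tested. The count of 7 ranged from 0 without the combination library of experiment 3, where 0.775% of all genes were called, to 13 without that of experiment 2, where 24.5% were, and it was 1, 2 and 2 without the T0070907 libraries of experiments 1, 2 and 3, with 1.57%, 1.23% and 7.06% of all genes called. In the last of these fits the share of members, 4.55%, was below that of all genes.

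The members differed widely between the 3 experiments. The experiment term was called for 31 of 43 tested members (72.1%), against 30.5% of all genes (71.9% against 30% with at least 10 counts in every library, and 54.8% against 23.4% with no filter). The median range between experiments in the blocked fit was 0.53 on the log2 scale, against 0.19 for all genes, which were not matched for expression level. By the mean over conditions, experiment 2 was highest for the collagenase MMP1, for MMP3, PLAU and ADAMTS10, and lowest for MMP8, ADAMTS9, MMP17, ADAMTS16, ADAM23 and TIMP3. MMP8 averaged 4.81, 0.801 and 6.34 CPM over the 4 conditions in experiments 1, 2 and 3, a log2 difference of -2.99 between experiments 2 and 3. MMP3 averaged 2.54, 8.46 and 1.18 CPM, a difference of 2.82, and MMP1 averaged 4.42, 14.1 and 4.44 CPM, although with RGZ it was highest in experiment 3 (3.85, 5.94 and 7.21 CPM). In all 4 conditions MMP8 was lowest and MMP3 highest in experiment 2. MMP19 was among the 12 tested members for which the experiment term was not called (adjusted p = 0.19).

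**Figure D4:**
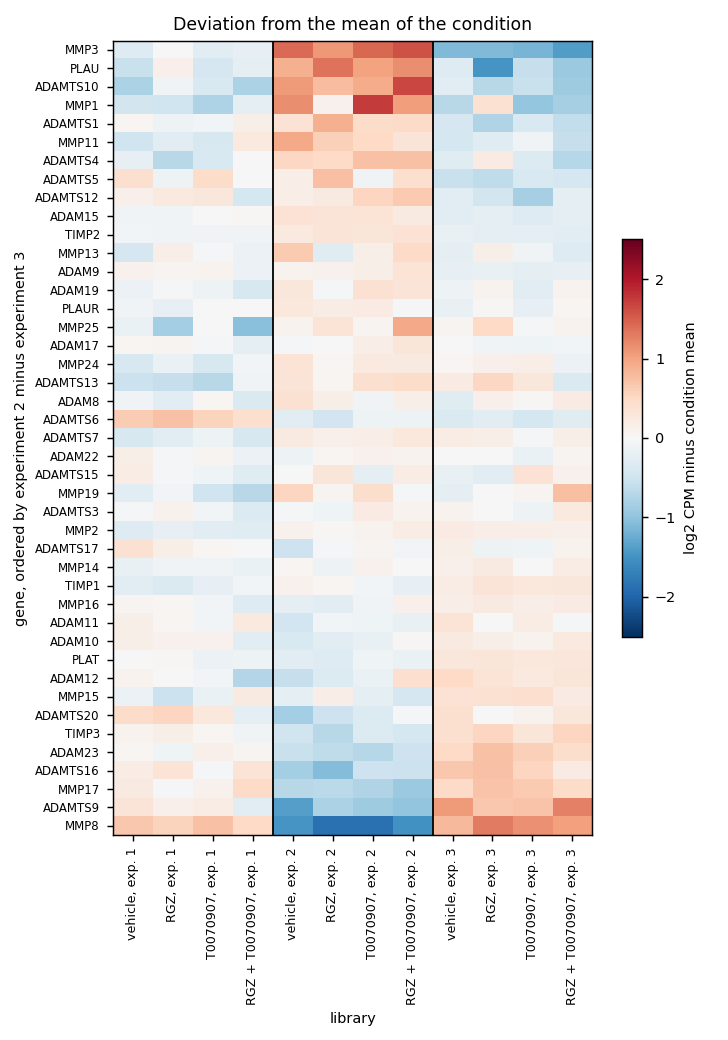
Deviation of each tested member from the mean of its condition in log2 CPM, by library, with the 3 experiments side by side and genes ordered by experiment 2 minus experiment 3. MMP3 at the top (2.82) and MMP8 at the bottom (-2.99) mark the ends, and the 4 libraries of an experiment resemble each other.

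Several of these genes lie together on chromosome 11, in the order MMP7, MMP20, MMP27, MMP8, MMP10, MMP1, MMP3, MMP12 and MMP13 in GRCh38.p14. Stromelysin MMP10, too low to test, had 0, 12 and 0 counts in the vehicle libraries and 2, 1 and 0 in those of RGZ. T0070907 libraries held 2, 17 and 1 counts, and combination libraries 1, 6 and 0. It was thus over the floor in experiment 2 alone, in 3 of its 4 libraries. The elastase MMP12 had at most 2 counts in experiments 1 and 3 and 2 to 5 in experiment 2. MMP8, between MMP27 and MMP10 in this order, was lowest in that experiment. Of the markers given above, COL1A1 and MITF were highest and SOX10 lowest in experiment 2, and their part in this pattern was not tested.

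Genes that act with the members were taken from lists chosen here, with earlier results of these data known. For RGZ against vehicle, 9.3% of all genes were called with the block and 1.24% without it, the shares to set beside each list. Of 14 plasminogen system genes outside the members, 9 were tested. RGZ against vehicle gave 2 higher and 3 lower with the block and 0 called without it. SERPINE2, which inhibits urokinase and plasmin, rose by 0.66 on the log2 scale (SE 0.05, adjusted p = 2.7e-07), from 2794 ± 538 to 4439 ± 968 CPM (SD, n = 3). S100A10, part of a plasminogen receptor, rose by 0.34. The tissue factor gene F3 fell by 0.99, SERPINA5, which also inhibits plasminogen activators, by 0.58 and the uptake receptor LRP1 by 0.31 (adjusted p = 0.0462). Of 14 activators, anchors and inhibitors outside the TIMP family, 11 were tested, and SPOCK1 and TFPI2 were called higher in both fits. TFPI2, an inhibitor of plasmin and other serine proteases, rose by 1.56 without the block (adjusted p = 0.0411) and 1.53 with it, and the matrix protein gene THBS1 fell by 0.45 with the block only.

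Among 9 partners of ADAM10 and ADAM17, all tested, the blocked fit called TSPAN14 (0.35) and FRMD8 (0.37) higher and TSPAN33 (-0.53) and RHBDF1 (-0.26) lower. The adjusted p of TSPAN33 (0.0496) and RHBDF1 (0.0499) lay just under the threshold. TSPAN14 is a tetraspanin that accompanies ADAM10, and FRMD8 stabilises the complex of iRhom and ADAM17. Neither protease was itself called with RGZ, and none of the 9 partners was called without the block. Of 6 ADAMTS-like genes, 5 were tested, and ADAMTSL4 was higher by 0.90 with the block. Of 19 other matrix proteases, 13 were tested. The lysosomal cathepsin gene CTSL was higher in both fits, by 0.63 without the block (adjusted p = 0.0229), and PRSS23 was lower with the block (-0.31). Addition of RGZ to T0070907 gave, with the block, 2 higher and 2 lower in the plasminogen list and 2 higher among activators and anchors. It gave 1 higher in each of the other 3 lists. In that fit 4.55% of all genes were called higher and 4.22% lower.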

How the data were processed

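RNA of A375 cells was sequenced in 12 libraries (TruSeq RNA, Illumina). The authors deposited raw counts per gene under Entrez numbers, with no normalization. Build hg19 is named in the submitters' processing notes, while the aligner, the counter and the use of strand are not given in the sources used here. Of 23705 gene rows, 23538 were matched to RefSeq symbols (GRCh38.p14). Libraries were grouped by their labels, whose experiment number pairs them across conditions (correlations of 0.0793 to 0.758 over 18 pairs). Counts were scaled by TMM, filtered with filterByExpr (13522 genes) and tested with edgeR 4.0.16 quasi-likelihood F tests in R 4.3.3, with Benjamini-Hochberg adjustment over all tested genes, in 6 comparisons, without and with the experiment as a block. Without the block, P-values measure the spread of levels between the experiments. With it, they measure the spread left once the level of each experiment is fitted. The common dispersion was 0.0193 without the block and 0.00333 with it. Standard errors were derived from F. CPM are TMM-scaled, and lengths are of the longest GENCODE transcript. DESeq2 1.42.0, limma 3.58.1, other filters and leaving out each library were alternatives, and the code was tested on simulated counts. Members and lists were chosen with earlier results of these data known. Members were named with values where called in any comparison in either fit, where among the highest 3 of their class in vehicle CPM, where of interest to the study after TXNIP knockdown (MMP1, MMP14, MMP16 and TIMP2, measured by another assay, and MMP2, by its primer list) or where over the floor in 1 condition only. MMP13, on that primer list as is MMP8, and some others are named with values beside these, several for their place on chromosome 11, chosen after their values were seen.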

Additional observations from a re-analysis of the deposited data

How the results depend on the processing

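The experiment block moved the counts in 4 of the 6 comparisons, leaving out 1 library moved them too, and counts are too low for 25 members to be tested at this depth. For RGZ against vehicle, where 2 members were called, edgeR with the block called 14, limma-voom with the block 13, DESeq2 with the block 10, and a fit of only the groups compared 1, among 1258, 1220, 896 and 69 genes called in all. Leaving out 1 library gave 0 to 2 without the block (0.328% to 0.643% of all genes) and 9 to 11 with it (5.23% to 7.97%). For the combination against RGZ (1 called), these counts were 14, 14, 12 and 0 among 1545, 1466, 1071 and 41 genes, DESeq2 without the block gave 3 among 318, and leaving out 1 library gave 0 to 1 (0.386% to 0.951% of all genes), and 8 to 15 with the block (6.25% to 18.9%). For the combination against T0070907 (0 called) they were 7, 6 and 4 in blocked edgeR, limma-voom and DESeq2 among 1185, 1009 and 880 genes, with 0 to 13 in blocked fits without 1 library (0.775% to 24.5% of all genes). T0070907 against vehicle (0 called) gave 2 in each blocked tool (109 to 123 genes) and 1 with DESeq2 (21 genes), with 0 to 1 in blocked fits without 1 library (0.22% to 0.452%). The combination against vehicle (0 called) gave 1 with blocked DESeq2 (227 genes), and 8 without replicate 2 of the combination (19% of all genes) and 4 without replicate 2 of vehicle (6.38%) in blocked fits. The interaction gave 1 call, MMP2, in the blocked fit without replicate 1 of the combination (0.764% of all genes). The experiment term was called for 31 members, and for 23 of 32 with at least 10 counts in every library (30% of all genes) and 34 of 62 with no filter (23.4%). Without the block, 2 values reversed: MMP3 with RGZ was 0.16 on the log2 scale without replicate 2 of vehicle (range -1.75 to 0.16 over 6 fits), and TIMP2 in the combination against RGZ was -0.0021 without replicate 2 of the combination (range -0.0021 to 0.37). The cause was not tested. Of the other log2 values by setting, 529 kept direction and side of the threshold, 223 passed it only under the alternative and 15 lost the call.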

Other observations

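MMP28, a secreted MMP too low to test, was detected in experiment 2 only. Its counts there were 6 (vehicle), 8 (RGZ), 2 (T0070907) and 1 (combination), and it had 0 counts in all 8 libraries of experiments 1 and 3, a level that the floor of 3 counts limits to at most 0.371 CPM per library. ADAM32 had 3, 6 and 8 counts in the vehicle libraries of experiments 1, 2 and 3 and 1 to 10 counts elsewhere, and ADAMTS2, a procollagen processing enzyme, had 3 to 11 counts over all libraries. These genes were picked after their counts were seen.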
